A study of Homo sapiens with 7 samples.

Results

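The genes described here encode the receptors with which lymphoid cells hold on to matrix, endothelium and one another: 18 integrin alpha chains, 8 integrin beta chains, 6 immunoglobulin-type molecules that integrins bind (ICAM1, ICAM2, ICAM3, VCAM1, L1CAM and PECAM1), and 5 further adhesion genes (SELPLG, CD44, CD99, NCAM1 and ALCAM). They were chosen by name as classical adhesion molecules, with earlier results of these data known. A gene was measured where at least 1 probe set carried its symbol alone. Of the 37 genes, 36 were measured, with 113 probe sets, among 19775 genes measured in all. The exception was ITGB6, whose probe sets were annotated to more than 1 gene and were left out. The data came from 7 established Hodgkin lymphoma (HL) lines, namely L-540, L-428 and L-1236, SUP-HD1, KM-H2, and U-HO1 and HDLM-2, each profiled once, with no treatment given in the labels, on the Affymetrix HG U133 Plus 2.0 array. Without replicates no p-value is given, and every difference is one between 2 arrays. The study's methods name a pair of laboratories for the arrays without assigning lines to them, so line and laboratory cannot be told apart. All levels below are log2 values for transcripts, and none of them measures protein on the cell surface.

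An integrin reaches the cell surface only as a pair of 1 alpha and 1 beta chain, and the pair sets what it binds. Pairs with the ITGB2 chain are the leukocyte integrins, which bind the ICAM family; pairs of ITGA4 bind VCAM1 and fibronectin; and pairs of ITGAV bind matrix proteins that carry the RGD tripeptide. Selectins, which catch cells from flowing blood, bind the mucin encoded by SELPLG. In HL the malignant cells lie among many reactive leukocytes, and such receptors and their counter-receptors are the means of contact between them.

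A level counted as above background when it exceeded a cut set for each array, the 95th percentile of its 107 olfactory receptor levels, which lay between 4.49 and 4.86 in 6 lines and at 5.59 in L-1236. As technical error, called the technical spread below, served the SD between the probe sets of 1 gene, which was 0.58 when pooled over 5050 genes. It is 1 SD of a single level, and a difference between 2 levels varies more. A gap between lines beyond the technical spread is therefore a lenient mark and not a test. L-1236 and U-HO1 stood apart on the arrays: the SD between probe sets of a gene was 0.67 in the first and 0.82 in the second, against 0.41 to 0.45 in the other lines. U-HO1 also had an 18S rRNA level of 11.12, against 5.23 to 7.06 elsewhere, and its ACTB probe sets differed by 2.11 between the 3' and 5' ends, against 0.06 to 0.54. The levels of L-1236 also covered a narrower span, with an upper quartile of 5.89, against 6.27 to 6.38 on the other arrays. A second quantile normalization moved the adhesion genes of L-1236 by -0.18 to 0.61, and those of the other lines by -0.17 to 0.08. The part of the other array features in the results for both lines was not tested. Of 6 Hodgkin/Reed-Sternberg markers, 6 were above background in 5 lines and 5 in L-1236 and SUP-HD1. TNFRSF8, which encodes CD30, was below background in SUP-HD1 at 4.36, and TRAF1 in L-1236 at 4.97. Of markers of other cell types, between 1 and 4 of 6 B cell genes, 0 to 5 of 6 T cell genes, 0 to 2 of 4 myeloid genes, 0 to 2 of 5 platelet genes, 0 to 2 of 5 endothelial genes, 1 to 2 of 6 fibroblast genes, 1 to 3 of 5 epithelial genes and 3 to 5 of 5 neural genes exceeded background in a line. MS4A1, the CD20 gene of B cells, CD79B, and the endothelial genes VWF, CDH5 and KDR were below it in all 7 lines. The other B cell genes were above it in some lines, PAX5 in 6, CD22 in 5, BLK in 4 and CD79A in 3. The other endothelial genes were TEK, above it in 3 lines, and CLDN5, in 1.

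Of the 36 measured adhesion genes, 8 were above background in all 7 lines, namely ITGA5, ITGAV, ITGB1, ITGB2, ICAM1, ICAM2, SELPLG and CD99. ITGA1 and ITGB8 were above it in no line, and the other 26 in some lines only. Over all genes, 34.6% were above background in every line and 26.7% in none. By line, the count was 18 in HDLM-2 (53.4% of all genes), 19 in KM-H2 (54.1%), 17 in L-1236 (43.5%), 25 in L-428 (56.0%), 22 in L-540 (57.9%), 20 in SUP-HD1 (58.8%) and 21 in U-HO1 (57.4%). Many of these genes lay close to the threshold, most of all in L-428, where 20 of the 36 were within the technical spread of background. Counted by an excess over background larger than that spread, the numbers became 15 in HDLM-2, 14 in KM-H2, 15 in L-1236, 12 in L-428, 18 in L-540, 17 in SUP-HD1 and 16 in U-HO1, so that the high count of L-428 was not retained. Over all genes, the same measure gave 47.0% in HDLM-2, 47.4% in KM-H2, 33.5% in L-1236, 48.1% in L-428, 50.1% in L-540, 50.5% in SUP-HD1 and 50.4% in U-HO1.

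**Figure D1:**
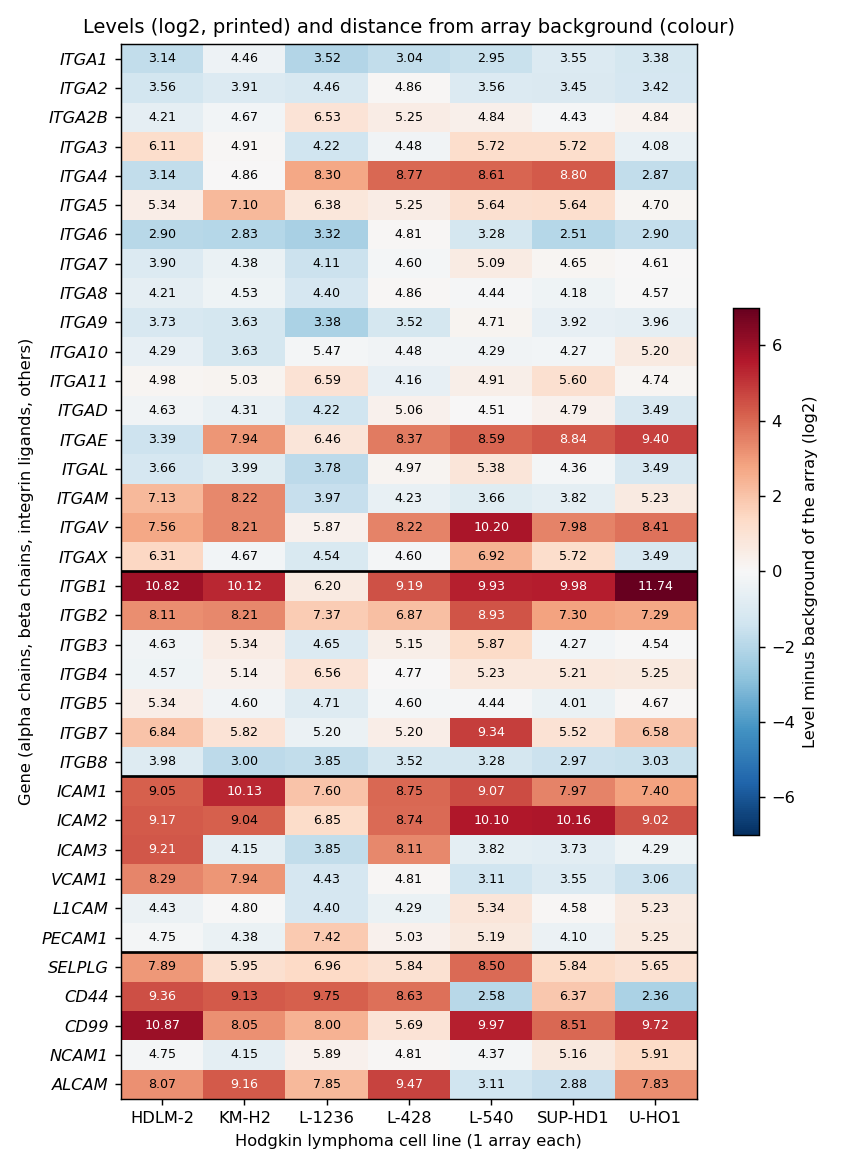
Levels of the 36 adhesion genes (rows: alpha chains, beta chains, integrin ligands, others) in the 7 HL cell lines (columns), printed as log2 values and coloured by the distance from the background of the array, red above and blue below. ITGB1, ICAM1 and ICAM2 are red in every column, CD44 is blue in L-540 and U-HO1, and many alpha chain cells are pale.

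The width of the differences between the lines was read from the range of each gene, its highest minus its lowest level. Of the 34 adhesion genes above background in at least 1 line, 22 had a highest and a lowest line at least 2 apart, a share to be read against 50.1% of all genes so expressed. Their median range was 2.41, against 2.00 over all such genes. With low values raised to background, the count was 19 of 34, against 36.9% of all genes, and without L-1236 it was 18 of 34, against 37.5%. L-540 was the highest line for 5 of the 22 (ITGAV, ITGAX, ITGB2, ITGB7 and SELPLG), as it was for 12.5% of all genes with a range of that size. HDLM-2 was highest for 4 (15.3% of all such genes), L-1236 for 4 (12.0%), KM-H2 for 3 (16.4%), and L-428 (11.7%), SUP-HD1 (13.7%) and U-HO1 (18.3%) for 2 each. The lowest line was read only for the 8 genes above background in all lines, each of which had a range of at least 2. It was L-1236 for ITGAV, ITGB1 and ICAM2 (3 genes, against 42.8% of all such genes), U-HO1 for ITGA5, ICAM1 and SELPLG (3 genes, against 15.3%) and L-428 for ITGB2 and CD99 (2 genes, against 7.51%). None of the 8 was lowest in KM-H2 (10%), SUP-HD1 (10.3%), L-540 (7.59%) or HDLM-2 (6.48%). After a second quantile normalization the same line was lowest for each of the 8. The median of the 34 adhesion genes above background in some line lay at -0.30 in L-1236 when each gene was centred on its mean, against -0.29 for all such genes, and between -0.21 in SUP-HD1 and 0.15 in L-540 in the other lines. The median over the 36 genes in L-1236 was -0.24 as deposited and 0.64 with low values raised to background. The background was 5.59 on that array and 4.49 to 4.86 on the others, so the raising lifted low values further in L-1236. The second sign therefore cannot be read as a difference in expression.

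Among the alpha chains, the broadest expression was that of the receptors for fibronectin and RGD proteins. ITGAV, the common alpha chain of the vitronectin receptors, had levels of 10.20 in L-540, 8.41 in U-HO1, 8.22 in L-428, 8.21 in KM-H2, 7.98 in SUP-HD1, 7.56 in HDLM-2 and 5.87 in L-1236. L-540 was thus 3.46-fold above the next line, U-HO1, and L-1236 was clearly the lowest, only 0.28 above its own background. ITGA5, the alpha chain of the fibronectin receptor, was at 7.10 in KM-H2, 6.38 in L-1236, 5.64 in L-540 and SUP-HD1, 5.34 in HDLM-2, 5.25 in L-428 and 4.70 in U-HO1. KM-H2 exceeded U-HO1 at least 5.28-fold, while the levels of HDLM-2, L-428 and U-HO1 were within the technical spread of background. Both genes were read from 1 probe set.

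ITGA4, the alpha chain of VLA-4 that lymphocytes use to bind VCAM1, divided the lines sharply. It had 8.80 in SUP-HD1, 8.77 in L-428, 8.61 in L-540 and 8.30 in L-1236, neighbours that did not differ beyond the technical spread. KM-H2 followed at 4.86, just 0.02 above background, and HDLM-2 and U-HO1 were below background at 3.14 and 2.87. L-1236 thus lay at least 3.44 above KM-H2, and SUP-HD1 exceeded the background of U-HO1 by 4.21. Of its 4 probe sets, 3 were above background in each of the 4 high lines and 0 in HDLM-2. In U-HO1, 1 of the 4 was above it, at 5.04.

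ITGAE, which encodes the CD103 chain of lymphocytes that lodge in epithelium, was high in all lines but 1. Its levels were 9.40 in U-HO1, 8.84 in SUP-HD1, 8.59 in L-540, 8.37 in L-428, 7.94 in KM-H2, 6.46 in L-1236 and 3.39 in HDLM-2. From U-HO1 to KM-H2 no neighbours differed beyond the technical spread, although U-HO1 and KM-H2 themselves did. L-1236 lay 1.48 below KM-H2 and exceeded the background of HDLM-2 by 1.60. HDLM-2 was the only line in which this probe set was below background. ITGAE and ITGA4 were therefore both below background in HDLM-2, while U-HO1 had the highest ITGAE level and ITGA4 below background at the probe set used.

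The alpha chains of the leukocyte integrins were restricted. ITGAM, the CD11b chain of myeloid and NK cells, had 8.22 in KM-H2 and 7.13 in HDLM-2, a 2.13-fold difference, and 5.23 in U-HO1, and was below background at 4.23 in L-428, 3.97 in L-1236, 3.82 in SUP-HD1 and 3.66 in L-540. Its second probe set did not show this order, with 3.55 in KM-H2 and 2.97 in HDLM-2, both below background, and 4.61 in U-HO1. ITGAX, the CD11c chain of dendritic cells and macrophages, was above background in another set of lines, at 6.92 in L-540, 6.31 in HDLM-2 and 5.72 in SUP-HD1, and below it at 4.67 in KM-H2, 4.60 in L-428, 4.54 in L-1236 and 3.49 in U-HO1. Its second probe set was below background in all lines, at 3.91 in L-540, 3.14 in HDLM-2 and 3.35 in SUP-HD1. HDLM-2 was the only line with both chains at the probe sets used. Of the 4 myeloid markers measured, 1 was above background in HDLM-2, 2 in KM-H2, 1 in L-540, 1 in SUP-HD1 and 0 in U-HO1. CSF1R was above it in HDLM-2 at 5.24, KM-H2 at 6.63, L-540 at 7.65 and SUP-HD1 at 5.80, and CD14 in KM-H2 at 6.02. LYZ and MPO were below it in all 7 lines. ITGAL, the CD11a chain of LFA-1, which most lymphocytes carry, was above background in L-540 at 5.38 and in L-428 at 4.97 only, and lay between 3.49 and 4.36 in the other lines. Its second probe set was above background in L-428 at 5.29 and below it in L-540 at 3.73. ITGAD, the CD11d chain, did not exceed its background by more than the technical spread in any line, with a highest level of 5.06 in L-428.

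**Figure D2:**
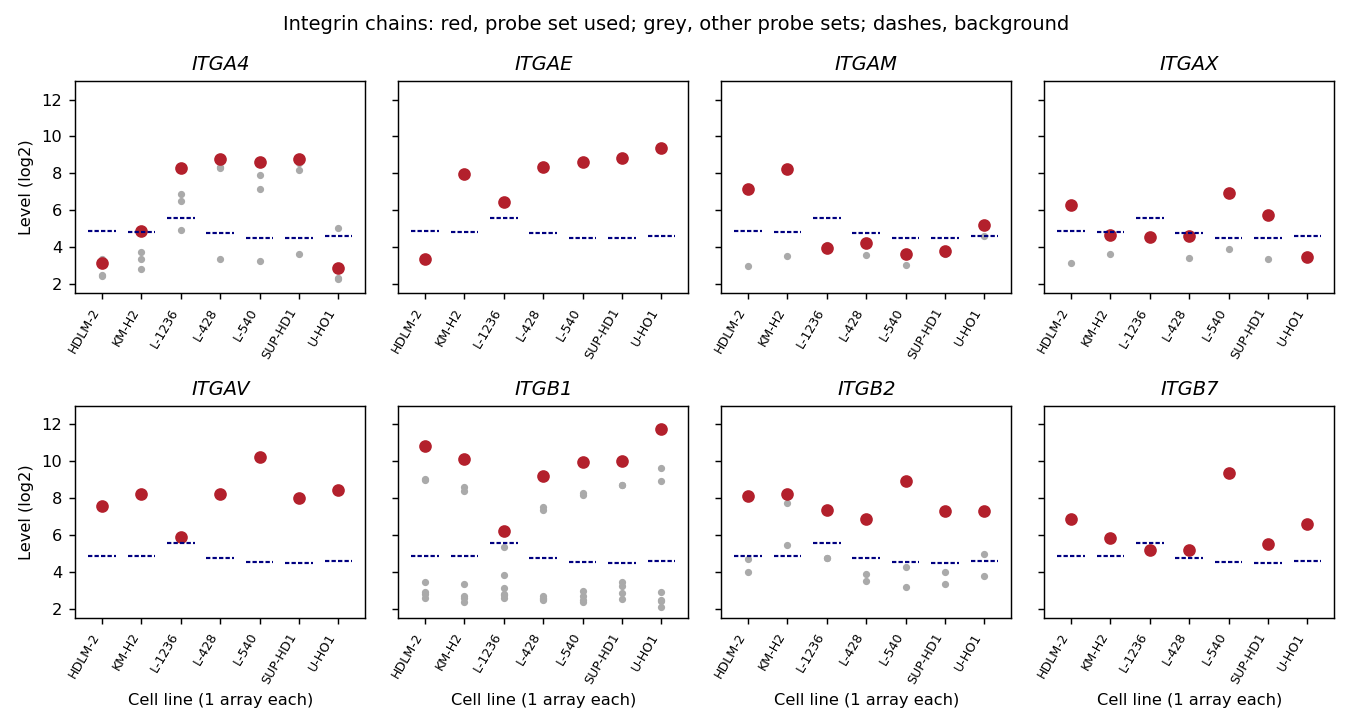
Levels (log2, vertical axis) of 5 alpha and 3 beta integrin chains in the 7 HL cell lines (horizontal axis), with the probe set used in red, other probe sets of the gene in grey and the background of each array as dashes. ITGA4 falls below background in HDLM-2 and U-HO1, ITGAE in HDLM-2 alone, and ITGB1 is lowest in L-1236 at 6.20.

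The remaining alpha chains with a range of at least 2 were lower. ITGA3, a laminin receptor chain of epithelia, was at 6.11 in HDLM-2, 5.72 in L-540 and SUP-HD1, 4.91 in KM-H2, 4.48 in L-428, 4.22 in L-1236 and 4.08 in U-HO1. Its first 3 lines stood above the rest by at least 0.81, more than the technical spread, and above background by more than that spread. ITGA2B, the platelet chain CD41, had 6.53 in L-1236, 5.25 in L-428, 4.84 in L-540 and U-HO1, 4.67 in KM-H2, 4.43 in SUP-HD1 and 4.21 in HDLM-2. No more than 1 of its 4 probe sets was above background in any line, and of the 5 platelet markers 0 were above it in L-1236. That count was taken at the higher background of L-1236, 5.59, and does not rank this line below the others in platelet genes. ITGA11, a collagen receptor chain of fibroblasts, was also highest in L-1236 at 6.59, followed by 5.60 in SUP-HD1, 5.03 in KM-H2, 4.98 in HDLM-2, 4.91 in L-540, 4.74 in U-HO1 and 4.16 in L-428. ITGA6, a laminin receptor chain, reached 4.81 in L-428, 0.06 above background there, against 2.51 to 3.32 in the other lines. Of the 3 ITGA11 probe sets, a second one was highest in SUP-HD1 at 5.38 and above background in L-428 at 4.86, but below it in L-1236 at 4.37. The third was below background in all lines. ITGA2, ITGA7, ITGA8, ITGA9 and ITGA10 were at most 0.61 above background in every line. The highest level of each at the probe set used was 4.86 in L-428 for ITGA2, 5.09 in L-540 for ITGA7, 4.86 in L-428 for ITGA8, 4.71 in L-540 for ITGA9 and 5.47 in L-1236 for ITGA10, the last below the background of that array. The second ITGA2 probe set was at 5.09 in L-540, above background there. ITGA1, a collagen receptor chain, was below background in all lines, with levels from 2.95 to 4.46.

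The beta chains were led by the common partners. ITGB1, which pairs with 12 of the alpha chains, had levels of 11.74 in U-HO1, 10.82 in HDLM-2, 10.12 in KM-H2, 9.98 in SUP-HD1, 9.93 in L-540, 9.19 in L-428 and 6.20 in L-1236. U-HO1 exceeded L-1236 46.5-fold, or 32.3-fold after a second quantile normalization, and L-1236 was the lowest line at each of the 3 probe sets that rose above background anywhere. Of these 3, only the one used exceeded background in L-1236, by 0.61, the others being at 5.34 and 3.85. The other 4 of the 7 ITGB1 probe sets were below background in every line. ITGB2, the beta chain of the leukocyte integrins, varied less, with 8.93 in L-540, 8.21 in KM-H2, 8.11 in HDLM-2, 7.37 in L-1236, 7.30 in SUP-HD1, 7.29 in U-HO1 and 6.87 in L-428. L-540 stood 4.17-fold above L-428. Of the 3 ITGB2 probe sets, only the one used exceeded background in HDLM-2, L-1236, L-428, L-540 and SUP-HD1, against 2 in U-HO1 and 3 in KM-H2. Another put KM-H2 highest at 7.73 and L-540 lowest at 3.20. Thus all 7 lines had a clear ITGB2 level at the probe set used. This included L-1236, in which ITGAL, ITGAM, ITGAX and ITGAD were all below background.

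ITGB7, the partner of ITGA4 and ITGAE in gut-homing and epithelium-binding lymphocytes, was high in 1 line. It was at 9.34 in L-540, 6.84 in HDLM-2, 6.58 in U-HO1, 5.82 in KM-H2, 5.52 in SUP-HD1 and 5.20 in L-1236 and L-428, the L-1236 value being below background. L-540 was 5.66-fold above HDLM-2. ITGB3, the beta chain of the platelet receptor and of the classical vitronectin receptor, was also highest in L-540 at 5.87, against 5.34 in KM-H2, 5.15 in L-428 and 4.27 to 4.65 elsewhere. L-540 held the highest level at all 4 of the 7 ITGB3 probe sets that exceeded background in any line. Probe sets other than the one used put ITGB3 above background in SUP-HD1 (1 of 7) and in U-HO1 (2 of 7), whereas in KM-H2 the one used was alone above it. ITGB4, a chain of epithelial hemidesmosomes, was between 4.57 and 5.25 except for 6.56 in L-1236. ITGB5 reached 5.34 in HDLM-2 and 4.01 to 4.71 elsewhere, and ITGB8 stayed between 2.97 and 3.98, below background in all lines.

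Which integrins a line could assemble was read from these levels, counting a pair when both chains were above background in the same line at the probe set used for each. Of the 24 known human pairs, 23 had both chains measured. The fibronectin receptor ITGA5/ITGB1 and the RGD receptor ITGAV/ITGB1 were possible in all 7 lines, ITGA1/ITGB1 and ITGAV/ITGB8 in none, and the other 19 in some. By line there were 7 pairs in HDLM-2, 9 in KM-H2, 4 in L-1236, 13 in L-428, 13 in L-540, 10 in SUP-HD1 and 8 in U-HO1. When both chains had to exceed background by more than the technical spread, 4 pairs were left in HDLM-2, 4 in KM-H2, 3 in L-1236, 2 in L-428, 9 in L-540, 8 in SUP-HD1 and 4 in U-HO1. L-428 thus had as many pairs as L-540 by the first count and the fewest by the second, where only ITGA4/ITGB1 and ITGAV/ITGB1 remained in L-428. The 3 pairs left in L-1236 all had ITGB1 0.61 above background, less than that array's own SD between probe sets of 0.67. In U-HO1, ITGAM and ITGA10 lay 0.64 and 0.61 above background, less than that array's SD of 0.82.

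**Figure D3:**
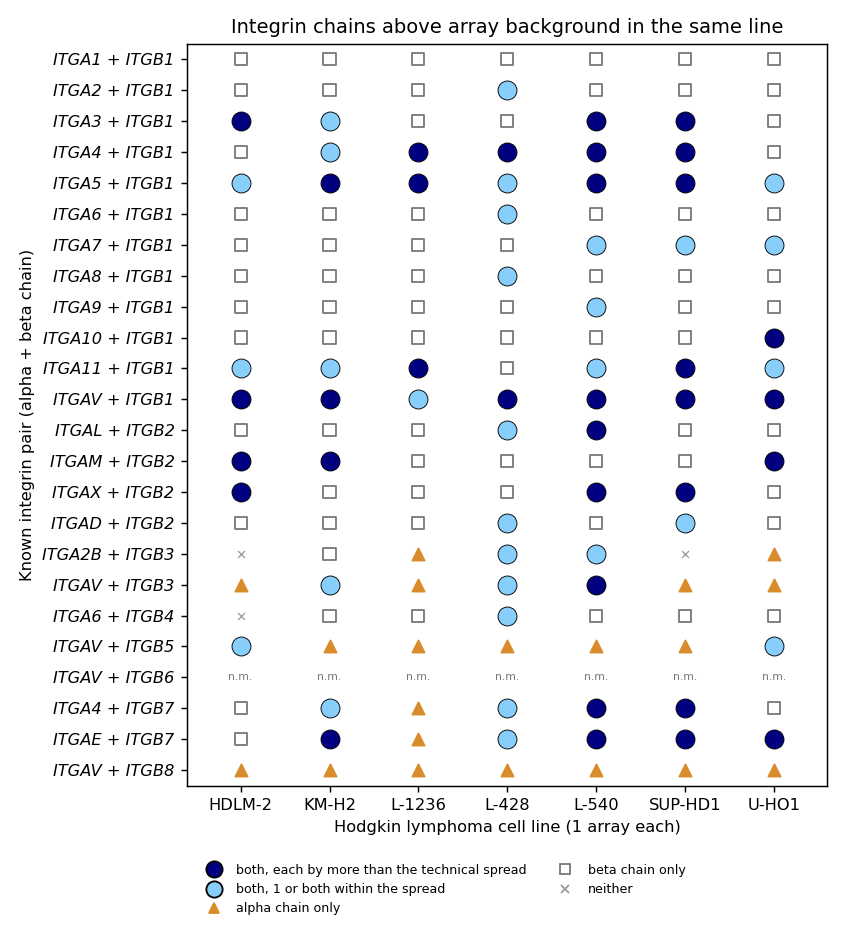
The 24 known integrin pairs (rows) in the 7 HL cell lines (columns), with filled circles where both chains were above background, dark where each exceeded it by more than the technical spread, and open or coloured symbols where only 1 chain or neither did (n.m., not measured). ITGA4 + ITGB7 and ITGAE + ITGB7 are dark together in L-540 and SUP-HD1, and L-428 holds more light circles than any other line.

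The ITGA4 and ITGAE pairs differed between the lines. VLA-4, the pair ITGA4/ITGB1, was possible in SUP-HD1, L-540, L-428 and L-1236 by more than the technical spread, and in KM-H2 within it. The ITGB1 level of L-1236 was 0.61 above background. ITGA4/ITGB7, the receptor of gut-homing lymphocytes, was possible in KM-H2, L-428, L-540 and SUP-HD1, by more than the spread in L-540 and SUP-HD1. ITGAE/ITGB7, which binds E-cadherin, was possible in U-HO1, SUP-HD1, L-540 and KM-H2 by more than the spread, and in L-428 within it. HDLM-2 had none of the 3 pairs for want of both alpha chains, although its ITGB1 and ITGB7 levels were above background. L-1236 had both alpha chains above background and ITGB7 below it. Its ITGB7 level of 5.20 was the same as that of L-428, but lay 0.39 below the higher background of L-1236, within the technical spread.

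The leukocyte integrins also differed by line. LFA-1, the pair ITGAL/ITGB2, was possible in L-428 and L-540, in L-540 alone by more than the technical spread, while only in L-428 were both ITGAL probe sets above background. Mac-1, the pair ITGAM/ITGB2, was possible in HDLM-2, KM-H2 and U-HO1, in HDLM-2 and KM-H2 by 1 of the 2 ITGAM probe sets and in U-HO1 by both. The pair ITGAX/ITGB2 was possible in HDLM-2, L-540 and SUP-HD1, by more than the spread in each, on 1 of the 2 ITGAX probe sets. ITGAD/ITGB2 was counted in L-428 and SUP-HD1 with ITGAD 0.31 and 0.30 above background. L-1236 had no pair of ITGB2, since all 4 alpha chains of this family were below background there. The vitronectin receptor ITGAV/ITGB3 was possible in KM-H2, L-428 and L-540, in L-540 alone by more than the spread, and other ITGB3 probe sets would add SUP-HD1 and U-HO1. Laminin and collagen receptors were few. ITGA3/ITGB1 was possible in HDLM-2, KM-H2, L-540 and SUP-HD1. ITGA11/ITGB1 was possible in all lines but L-428, where another ITGA11 probe set exceeded background. It was possible by more than the spread in L-1236 and SUP-HD1, in L-1236 on 1 of the 3 ITGA11 probe sets. The other pairs, of ITGA2, ITGA2B, ITGA6, ITGA7, ITGA8, ITGA9 and ITGB5, were counted only with a chain within the spread of background, and ITGA10/ITGB1 was counted in U-HO1, where ITGA10 lay 0.61 above it.

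The integrin ligands of the immunoglobulin type were next examined. ICAM1 and VCAM1 are textbook targets of NF-kB, a pathway known to be active in HL cells, and the 250 bases before the start of each gene are given because VCAM1 was high in HDLM-2 and KM-H2 only and KM-H2 also had the highest ICAM1 level. The sequences are from RefSeq (GRCh38.p14), ICAM1 at chr19:10270870-10271119 and VCAM1 at chr1:100719492-100719741, both on the plus strand and written 5' to 3'. Capitals mark matches to GGNNNTTCC, a simple form of the NF-kB motif, searched on both strands.
ICAM1: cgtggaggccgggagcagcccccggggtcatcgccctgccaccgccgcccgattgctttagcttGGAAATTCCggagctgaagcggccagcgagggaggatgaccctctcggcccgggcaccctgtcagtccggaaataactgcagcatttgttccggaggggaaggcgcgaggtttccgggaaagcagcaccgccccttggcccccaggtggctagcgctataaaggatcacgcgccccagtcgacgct
VCAM1: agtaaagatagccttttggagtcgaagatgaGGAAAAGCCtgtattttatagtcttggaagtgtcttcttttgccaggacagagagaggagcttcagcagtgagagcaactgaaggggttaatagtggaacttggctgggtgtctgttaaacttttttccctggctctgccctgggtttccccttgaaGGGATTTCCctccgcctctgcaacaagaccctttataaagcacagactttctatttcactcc

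The ICAM1 stretch held 1 match, from -186 to -178 of the start, which reads as a match on either strand. VCAM1 held 2 that do not overlap, at -62 to -54 on the plus strand and at -219 to -211 on the minus strand. Of 35116 promoters of this length, 17.1% held a match, and so did 5 of the 33 entries found for 24 of the adhesion genes, those of ICAM1, VCAM1, ITGA1, ITGA5 and ITGA11. ITGA1 was among them and was below background in all lines. The stretches also differed in CpG dinucleotides, with 23 in ICAM1 and 2 in VCAM1. Sites that depart from this simple form are not marked, and whether a match is a known site was not examined. The matches are letters in a window and no binding was measured.

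ICAM1, the main ligand of LFA-1 and Mac-1 on antigen-presenting cells, was high in all lines. Its levels were 10.13 in KM-H2, 9.07 in L-540, 9.05 in HDLM-2, 8.75 in L-428, 7.97 in SUP-HD1, 7.60 in L-1236 and 7.40 in U-HO1. KM-H2 had the highest and U-HO1 the lowest level at all 3 probe sets, and they differed 6.63-fold at the one used. ICAM2, a constitutive LFA-1 ligand of endothelium and leukocytes, was at 10.16 in SUP-HD1, 10.10 in L-540, 9.17 in HDLM-2, 9.04 in KM-H2, 9.02 in U-HO1, 8.74 in L-428 and 6.85 in L-1236. L-1236 was the lowest line by 1.89, and SUP-HD1 exceeded it 9.92-fold, or 5.94-fold after a second quantile normalization.

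ICAM3 and VCAM1 were each confined to few lines. ICAM3, the ICAM of resting leukocytes, had 9.21 in HDLM-2 and 8.11 in L-428, a 2.14-fold difference, and was below background in the others at 4.29 in U-HO1, 4.15 in KM-H2, 3.85 in L-1236, 3.82 in L-540 and 3.73 in SUP-HD1. VCAM1, an inducible ligand of ITGA4 integrins on activated endothelium and follicular dendritic cells, had 8.29 in HDLM-2 and 7.94 in KM-H2, which did not differ beyond the technical spread. It was at 4.81 in L-428, 0.06 above background, and below background at 4.43 in L-1236, 3.55 in SUP-HD1, 3.11 in L-540 and 3.06 in U-HO1. Thus HDLM-2 exceeded L-428 at least 11.2-fold and KM-H2 exceeded it at least 8.75-fold, the L-428 level being within the technical spread of background. Each of these genes was read from 1 probe set.

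PECAM1, the CD31 molecule of endothelium, platelets and several leukocytes, was prominent in L-1236. It was at 7.42 there, against 5.25 in U-HO1, 5.19 in L-540, 5.03 in L-428, 4.75 in HDLM-2, 4.38 in KM-H2 and 4.10 in SUP-HD1. All 5 of its probe sets were above background in L-1236, from 5.63 to 8.86, and all 5 were highest there, whereas 4 of the 5 exceeded background in L-428, with levels up to 5.15, and 1 of the 5 in L-540 and in U-HO1. The endothelial markers measured were below background in L-1236, with 0 of 5 above it, and so were the platelet markers with 0 of 5. The background of L-1236 was the highest, at 5.59. GP1BA, a platelet gene, was highest in L-1236 at 5.29, but exceeded background only in SUP-HD1 at 4.65 and U-HO1 at 4.61. GP9 was lowest in L-1236 at 4.71. With each gene centred on its mean, the platelet median was 0.39 in L-1236 and -0.26 to -0.01 elsewhere. The endothelial median was 0.07 in L-1236, against -0.27 in HDLM-2 and 0.29 in SUP-HD1. The counts of 0 therefore do not rank L-1236 below the other lines. L1CAM, a neural adhesion molecule that binds RGD integrins, reached 5.34 in L-540 and 5.23 in U-HO1 and lay between 4.29 and 4.80 in the other lines. Its second probe set was below background in all lines.

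**Figure D4:**
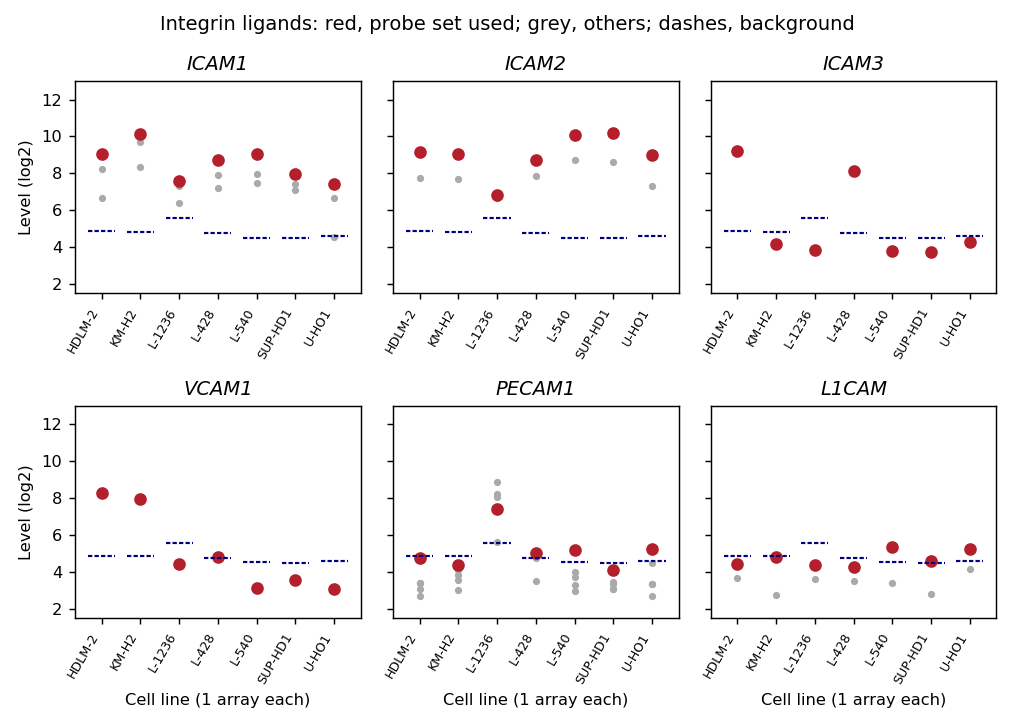
Levels (log2, vertical axis) of the 6 immunoglobulin-type integrin ligands in the 7 HL cell lines (horizontal axis), with the probe set used in red, other probe sets in grey and the background of each array as dashes. ICAM1 and ICAM2 lie above background in every line, ICAM3 in HDLM-2 and L-428, VCAM1 well above it in HDLM-2 and KM-H2, and PECAM1 is highest in L-1236.

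Of the 6 ligands, 4 were above background in HDLM-2 (ICAM1, ICAM2, ICAM3 and VCAM1), 3 in KM-H2 (ICAM1, ICAM2 and VCAM1), 3 in L-1236 (ICAM1, ICAM2 and PECAM1), 5 in L-428 (ICAM1, ICAM2, ICAM3, VCAM1 and PECAM1), 4 in L-540 (ICAM1, ICAM2, L1CAM and PECAM1), 3 in SUP-HD1 (ICAM1, ICAM2 and L1CAM) and 4 in U-HO1 (ICAM1, ICAM2, L1CAM and PECAM1). These counts are to be read against the share of all genes above background, from 43.5% in L-1236 to 58.8% in SUP-HD1. In L-428, VCAM1 and PECAM1 were only 0.06 and 0.28 above background, and in SUP-HD1 L1CAM was 0.09 above it. A ligand and its integrin then met in the same line as follows. ICAM1 and LFA-1 were both possible in L-428 and L-540, ICAM1 and Mac-1 in HDLM-2, KM-H2 and U-HO1, and ICAM1 and ITGAX/ITGB2 in HDLM-2, L-540 and SUP-HD1. L-1236 was the only line with ICAM1 and none of these receptors. ICAM3 and LFA-1 were both possible in L-428.

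No line had both VCAM1 and ITGA4, the alpha chain of its receptor VLA-4, above background by more than the technical spread. The 2 lines with a clear VCAM1 level, HDLM-2 and KM-H2, had ITGA4 at 3.14 and 4.86, at or below background. The 4 lines with clear ITGA4 had VCAM1 between 3.11 and 4.81. U-HO1 had neither at the probe sets used, with ITGA4 at 2.87 and VCAM1 at 3.06. Both counted as possible in KM-H2 and L-428 only, in KM-H2 by an ITGA4 level 0.02 above background and in L-428 by a VCAM1 level 0.06 above it. With 7 lines and no replicate, this pattern is a description of these arrays, and how often other pairs of genes show it was not tested. Other meetings of ligand and receptor were L1CAM with ITGA5/ITGB1 in L-540, SUP-HD1 and U-HO1, L1CAM with ITGAV/ITGB3 in L-540, and PECAM1 with ITGAV/ITGB3 in L-428 and L-540. Outside L-540 each of these rested on a level within the technical spread of background. L1CAM was 0.09 above it in SUP-HD1 and ITGA5 0.11 in U-HO1. In L-428, PECAM1 was 0.28 and ITGB3 0.40 above it.

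Among the other adhesion genes, CD44 and ALCAM were present or absent by line. CD44, the receptor for hyaluronan, was at 9.75 in L-1236, 9.36 in HDLM-2, 9.13 in KM-H2, 8.63 in L-428, 6.37 in SUP-HD1, 2.58 in L-540 and 2.36 in U-HO1. Among the first 4 lines no neighbours differed beyond the technical spread, although L-1236 and L-428 themselves did. SUP-HD1 lay 2.26 below L-428, and L-540 and U-HO1 were below background at all 13 probe sets of the gene. With the low values raised to background, the range was still 5.24. ALCAM, the CD166 ligand of the T-cell receptor CD6, was at 9.47 in L-428, 9.16 in KM-H2, 8.07 in HDLM-2, 7.85 in L-1236, 7.83 in U-HO1, 3.11 in L-540 and 2.88 in SUP-HD1. In L-540 and SUP-HD1, 0 of its 3 probe sets were above background. L-540 thus had both genes below background, U-HO1 only CD44 and SUP-HD1 only ALCAM.

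CD99, a small glycoprotein that leukocytes use when they cross endothelium, was above background everywhere. It was at 10.87 in HDLM-2, 9.97 in L-540, 9.72 in U-HO1, 8.51 in SUP-HD1, 8.05 in KM-H2, 8.00 in L-1236 and 5.69 in L-428. HDLM-2 exceeded L-428 36.3-fold, and the same lines were highest and lowest at both of its probe sets. SELPLG, the selectin ligand PSGL-1, was at 8.50 in L-540, 7.89 in HDLM-2, 6.96 in L-1236, 5.95 in KM-H2, 5.84 in L-428 and SUP-HD1 and 5.65 in U-HO1, with L-540 7.21-fold above U-HO1. Its second probe set also had L-540 and HDLM-2 highest, at 9.82 and 8.85, but was below background in L-1236 at 3.92 and in SUP-HD1 at 4.36. NCAM1, the CD56 molecule of neural and NK cells, was above background at 5.91 in U-HO1, 5.89 in L-1236, 5.16 in SUP-HD1 and 4.81 in L-428 and below it elsewhere. In each of these lines 1 of its 7 probe sets exceeded background.

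**Figure D5:**
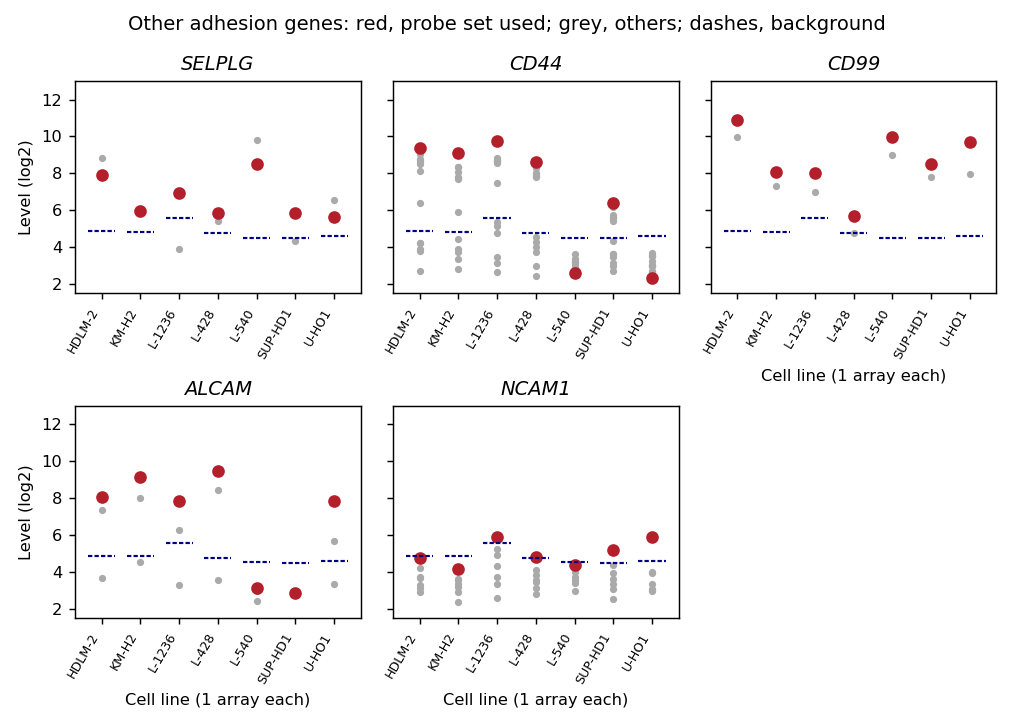
Levels (log2, vertical axis) of SELPLG, CD44, CD99, ALCAM and NCAM1 in the 7 HL cell lines (horizontal axis), with the probe set used in red, other probe sets in grey and the background of each array as dashes. All CD44 probe sets are below background in L-540 and U-HO1, and all ALCAM probe sets in L-540 and SUP-HD1.

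Genes that act with these receptors were read from 4 further lists, of which the named genes are those with the widest ranges. Their counts are to be read against 34.6% of all genes above background in every line, 26.7% in none and, among genes above it in some line, 50.1% with a range of at least 2. Of 24 activators and adaptors inside the cell, 12 were above background in all lines, 10 in some and 2 in none, and 18 of the 22 had a range of at least 2. PTK2, the focal adhesion kinase, was at 8.75 in U-HO1, 8.46 in L-428, 8.30 in SUP-HD1, 7.68 in KM-H2, 7.42 in L-1236 and 6.54 in L-540, and below background in HDLM-2 at 3.48. APBB1IP, the adaptor RIAM that brings talin to integrins, was above background in SUP-HD1 at 8.30, L-428 at 8.12 and L-1236 at 7.77, and between 3.46 and 4.43 in the other lines. FERMT2, the integrin-binding kindlin of non-hematopoietic cells, was above background in SUP-HD1 at 7.19 and L-428 at 7.04 only, and lay between 2.48 and 3.28 elsewhere. FERMT3, the kindlin of blood cells, named here after its values were seen, exceeded background in each line, with levels between 5.87 in SUP-HD1 and 8.56 in KM-H2. SKAP1, an adaptor of T cells, was above background in L-540 at 6.83 and HDLM-2 at 6.76, and between 3.66 and 4.53 elsewhere.

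Of 19 measured matrix and other integrin ligands, 4 were above background in all lines, 13 in some and 2 in none, and 11 of the 17 had a range of at least 2. SPP1, the RGD protein osteopontin, was at 12.41 in SUP-HD1, 8.73 in U-HO1 and 6.55 in L-428, and between 3.21 and 3.97 in the other lines. CDH1, which encodes E-cadherin, the ligand of ITGAE/ITGB7, was at 8.78 in HDLM-2, the line with ITGAE below background. It was at 4.77 in L-428, against a background of 4.75 there, and at 2.55 to 3.73 elsewhere. COL4A2, a basement membrane collagen chain, was above background in HDLM-2 at 8.73, SUP-HD1 at 6.84 and KM-H2 at 5.34. Its partner COL4A1 was above background in KM-H2 alone, at 7.32.

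Of 10 measured genes for selectins and the glycosylation of PSGL-1, 3 were above background in all lines, 5 in some and 2 in none, and 5 of the 8 had a range of at least 2. GCNT1, which starts the sugar branch that selectins need, was at 9.07 in SUP-HD1, 8.67 in L-428, 5.55 in HDLM-2 and 4.78 in L-540. It was below background at 5.15 in L-1236, 4.32 in U-HO1 and 4.08 in KM-H2. The L-1236 level exceeded that of L-540, the background of L-1236 being 5.59. B4GALT1, a galactosyltransferase, exceeded background in each line, with levels between 5.70 in L-1236 and 9.08 in U-HO1. The tyrosine sulfotransferases TPST1 and TPST2 were above it in 5 and 6 lines, the exceptions being L-540 at 3.82 and L-1236 at 5.36 for TPST1, and L-1236 at 4.37 for TPST2. The endothelial selectin SELE was at 2.46 to 2.92, below background throughout, and was named after its values were seen.

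Of 23 other immunoglobulin adhesion molecules, 5 were above background in all lines, 16 in some and 2 in none, and 14 of the 21 had a range of at least 2. CD58, the ligand of the T-cell molecule CD2, was at 10.26 in L-428 and 8.30 to 9.20 in the other lines but SUP-HD1, where it was at 2.51, below background. CD2 itself was at 8.95 in HDLM-2, 7.28 in L-540 and 4.58 in SUP-HD1. It was below background at 4.86 in L-1236, 4.29 in L-428, 3.49 in U-HO1 and 2.67 in KM-H2. The L-1236 level exceeded that of SUP-HD1, the background of L-1236 being 5.59. CD48, a ligand of 2B4, was at 10.85 in L-540, 10.30 in KM-H2, 7.21 in U-HO1 and 6.40 in L-1236, with the other lines below background. JAM3, a junctional molecule that binds Mac-1, was at 7.56 in KM-H2, 7.15 in L-428, 7.04 in U-HO1 and 6.19 in L-1236, whereas it was below background at 3.92 in SUP-HD1, 3.66 in HDLM-2 and 2.95 in L-540.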

How the data were processed

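Total RNA of 7 HL cell lines was hybridised to 1 array each, with 54675 probe sets. The authors made the deposited log2 levels by RMA background correction and quantile normalization, and the submitters' processing notes also name limma and affy, without versions. These deposited log2 values run from 1.99 to 14.17, are given to 2 decimals, are not centred and do not have the same distribution on the L-1236 array as on the others. The number of arrays limits the precision, and no test was possible with 1 array per line.

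Probe sets were named with the platform annotation, in which 41097 had 1 symbol, 1801 several and 11777 none, and 41043 symbols were brought up to date through RefSeq identifiers. A gene's level was that of its single-gene probe set whose mean over the lines was highest. Levels were not compared between genes. Python 3.11.15, numpy 2.4.6 and pandas 2.3.3 were used. The technical spread was the SD between probe sets of a gene after centring each on its mean, pooled over 13397 probe sets. It can also hold differences between transcripts.

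The adhesion genes, the integrin pairs, the ligand and receptor pairs, the 4 further lists and the 9 marker lists were chosen with earlier results of these data known. Genes given line by line were those above background in all lines or with a range of at least 2 and above background in some line, and in each further list up to 4 with the largest range. Some listed genes were not analysed here. Alternatives took other rules for the probe set of a gene, other background percentiles, values raised to background, renormalization, a range of 3 and each line left out. An excess over background larger than the technical spread was a further alternative, chosen after seeing the data. The steps were also tested on simulated data.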

Additional observations from a re-analysis of the deposited data

Results flagged for a closer look

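In 6 of the 36 adhesion genes, 1 line stood apart from the other 6 by a gap that took up more of the range than Dixon's critical value for 7 values allows. Chance gives about 1 such call in 20 genes, and among all genes above background in at least 1 line 12.5% met it, against 5 of the 34 adhesion genes so expressed. PECAM1 stood apart in L-1236 at 7.42, with the next line, U-HO1, at 5.25. ITGB4 stood apart in L-1236 at 6.56, with U-HO1 next at 5.25. ICAM2 was lowest in L-1236 at 6.85, with L-428 next at 8.74. ITGB7 stood apart in L-540 at 9.34, with HDLM-2 next at 6.84. ITGA6 was highest in L-428 at 4.81, within the technical spread of its background of 4.75, with L-1236 next at 3.32. ITGA1 was highest in KM-H2 at 4.46, with SUP-HD1 next at 3.55, and was below background in all lines. The background of L-1236, the line of 3 of these 6, was 5.59, against 4.49 to 4.86 in the others.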

How the results depend on the processing

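No paired analysis was possible because the lines were profiled once. Of 227 counts recomputed under the alternatives, 175 stayed within 1.5 times the reported value and 52 did not. The integrin pair counts were the least stable, with 41 within that limit and 29 beyond it. The numbers were 58 and 12 for ligands, 60 and 10 for adhesion genes above background, and 16 and 1 for the range count. By less than the technical spread moved 957 of 1232 levels, 414 of 500 ranges and 90 of 91 medians. Leaving out probe sets ending in _x_at or _s_at, which removes genes read only from them, gave 11 adhesion genes above background in HDLM-2, 12 in KM-H2, 10 in L-1236, 16 in L-428, 14 in L-540 and 12 in SUP-HD1, 3 pairs in HDLM-2, 0 in L-1236, 6 in L-428 and 8 in L-540, and 2 ligands in HDLM-2, 1 in KM-H2, 3 in L-428, 2 in L-540, 1 in SUP-HD1 and 2 in U-HO1. With the mean of all probe sets, 11 genes were above background in L-1236, pairs numbered 4 in HDLM-2, 5 in KM-H2, 0 in L-1236, 7 in L-428 and 5 in U-HO1, and ligands 2 in L-540. With the probe set of largest variance, pairs numbered 4 in HDLM-2, 0 in L-1236 and 6 in L-428, and ligands 2 in L-540 and 1 in U-HO1. Asking that at least 50% of a gene's probe sets exceed background gave 11 genes in L-1236, and pairs of 0 in HDLM-2, 2 in KM-H2, 0 in L-1236, 2 in L-428, 3 in L-540, 2 in SUP-HD1 and 2 in U-HO1, by construction for ITGB1, of whose 7 probe sets 4 were below background everywhere. ITGB2 also failed this rule in HDLM-2, L-1236, L-428, L-540 and SUP-HD1, with 1 of its 3 probe sets above background. The 90th percentile as background gave 16 pairs in KM-H2, 7 pairs in L-1236 and 5 ligands in KM-H2. The 99th gave 16 genes, 7 pairs and 3 ligands in L-428, and 4 pairs in HDLM-2, 3 in KM-H2 and 4 in U-HO1. An excess over background larger than the technical spread gave 12 genes, 2 pairs and 3 ligands in L-428, and 4 pairs in HDLM-2, 4 in KM-H2 and 4 in U-HO1. In L-1236, 3 of the 4 pairs were clear of background by that measure. Each had ITGB1 0.61 above background, less than that array's own SD between probe sets of 0.67. The counts of 0 in L-1236 came from the rules on probe sets. A range of 3 was reached by 14 genes, and without 1 line the count with a range of 2 was 18 (without L-1236) to 21, or 15 without both L-1236 and U-HO1, where 30.8% of all genes above background in some line had that range. With values raised to background, the median of the adhesion genes in L-1236, the array with the highest background, was 0.64. Counting a pair when any probe set of each chain exceeded background gave 12 pairs in U-HO1. Signal over background limits many alpha chain calls, including ITGA5 in HDLM-2, L-428 and U-HO1, ITGA4 in KM-H2 and ITGAV in L-1236.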
